A study of Mus musculus with 2 samples.

Results

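ScRNA-seq counts of 8 genes, the cytokines RANKL, CSF1, IL-34 and CSF3, the decoy receptor OPG and the receptors RANK, CSF1R and CSF3R, were examined by cell class in fracture callus, the repair tissue around a healing bone. The genes were chosen by symbol from the 32285 genes counted in each of 2 libraries, as Tnfsf11 (RANKL), Csf1, Il34 and Csf3 (ligands), Tnfrsf11b (OPG, a decoy receptor), and Tnfrsf11a (RANK), Csf1r and Csf3r (receptors). All 8 were found once in both matrices. Callus came from wild-type male adult C57BL/6J mice, per the labels and the methods of the study, after a transverse fracture of the femur that was held by a needle in the marrow cavity. The design names callus at 10 days (5 mice) and at 20 days (5 mice) after fracture. The 2 libraries, MGJ and MGJ2, carried otherwise identical labels that gave neither of them a day, and the barcodes do not separate mice. Each library was therefore described by itself, with no comparison between days and no test across samples. All intervals are 95% intervals of the counts and cover counting error only.

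RANKL is a cytokine made by stromal cells, cartilage cells and activated T cells. It binds RANK on macrophage-lineage precursors and drives them, together with CSF1, to become osteoclasts, the cells that resorb bone and mineralised cartilage. OPG is a secreted decoy that binds RANKL and keeps it from RANK. CSF1 and IL-34 share the receptor CSF1R, which monocytes, macrophages and osteoclasts need to survive. CSF3, also called G-CSF, acts through CSF3R on cells of the neutrophil line.

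Library MGJ held 14295 barcodes with 135304426 UMIs (unique molecular identifiers, one count per captured RNA molecule), and library MGJ2 held 8009 barcodes with 61130834 UMIs. After barcodes with few genes, high mitochondrial content or doublet calls had been removed, 13320 and 7584 cells were kept, and 13 kept barcodes occurred in both libraries. Joint clustering on variable genes, without the 8 genes, gave 32 clusters, which were named afterwards from marker lists that held none of the 8. Library MGJ had 18 named classes with 50 or more cells, against 15 for library MGJ2, and levels are ranked among these unless a smaller class is named. Cells without a name made up 31.4% of library MGJ, mostly 3793 cells of low UMI count whose best marker list was that of mature neutrophils, and 4.97% of library MGJ2. No fibroblast-like cell was named in library MGJ2 (0 of 7584 cells, exact binomial interval up to 0.0486%), and it held only 20 macrophage-like cells. Levels are given in CPM, the UMIs of a gene per 1000000 UMIs of the class, with summed counts. A gene was called higher or lower in a class when its level was at least 2 times, or at most 0.5 times, that in all other cells of the same library and the interval of the ratio excluded 1. Such a call describes 1 library and carries no p-value.

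Among classes of library MGJ with 50 or more cells, Tnfsf11 was highest in fibroblast-like cells. There it stood at 224 CPM (2377 UMIs in 598 cells, interval 215 to 233), 9.44 times the level in all other cells (interval 8.93 to 9.97), and these cells held 45.3% of all Tnfsf11 UMIs of the library. With cells weighted equally the ratio was 14.3. T-like cells (88.0 CPM, 72 UMIs) and tendon-like cells (87.7 CPM, 1405 UMIs) followed, at levels that could not be ordered (ratio 1.003, interval 0.780 to 1.27). Osteoblast-like cells came next with 49.2 CPM (129 UMIs), above chondrocyte-like cells with 19.6 CPM (1033 UMIs) by a ratio of 2.51 (interval 2.07 to 3.01). Because chondrocyte-like cells were many and rich in RNA, they still held 19.7% of the Tnfsf11 UMIs of the library. Chondrocyte-like cells could not be ordered against NK-like cells (22.5 CPM, 5 UMIs) or dendritic-like cells (17.5 CPM, 11 UMIs). The ratio of chondrocyte-like to dendritic-like cells was 1.12 (interval 0.623 to 2.25). Erythroid-like cells had 12.0 CPM (4 UMIs) and myeloid progenitor-like cells 10.7 CPM (31 UMIs). Mural-like cells, the smooth muscle cells and pericytes of vessel walls, had 6.54 CPM (9 UMIs) and endothelial-like cells 1.82 CPM (5 UMIs). In mature neutrophil-like cells, Tnfsf11 had a single UMI in 826 cells.

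Library MGJ2 held 245 Tnfsf11 UMIs in all. Its highest level in a named class was that of only 19 reticular stromal-like cells, led by Adipoq and Lepr, genes of the marrow stroma, which held 57 of these UMIs (279.8 CPM, interval 212 to 363). That was 13.6 times the level in chondrocyte-like cells (interval 9.55 to 19.3). Among classes with 50 or more cells, chondrocyte-like cells stood highest at 20.5 CPM (82 UMIs in 131 cells, interval 16.3 to 25.5), which was 6.81 times that in all other cells (interval 5.16 to 8.94). Osteoblast-like cells had 17.6 CPM and endothelial-like cells 16.2 CPM, from 7 UMIs each, and the intervals of these 3 classes overlapped. T-like cells had 9.04 CPM (41 UMIs in 810 cells). No Tnfsf11 UMI was found in 1906 mature neutrophil-like or 62 osteoclast-like cells of this library. The value of chondrocyte-like cells rested on the cluster led by Col10a1, the collagen gene of hypertrophic cartilage. At a clustering resolution of 2, where that cluster took no name, the ratio in library MGJ2 was 0.938 (interval 0.373 to 1.96), and with cells weighted equally it was 11.7.

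Among T-like cells, the signal lay in the cluster led by Icos and Cxcr6, genes of activated T cells. This cluster held all 72 Tnfsf11 UMIs of T-like cells in library MGJ (97.97 CPM, 202 cells) and 39 of the 41 in library MGJ2 (19.4 CPM, 369 cells), where the second T-like cluster, led by Tdrp and Gimap3, had 0.793 CPM (2 UMIs in 441 cells). Markers of fibroblasts stood in T-like cells of library MGJ at 0.818% of their level in fibroblast-like cells, while Tnfsf11 stood at 39.3%. In tendon-like, osteoblast-like and chondrocyte-like cells they stood at 91.6%, 31.1% and 21.9%, against 39.2%, 22.0% and 8.77% for Tnfsf11. At 91.6%, the list barely set tendon-like apart from fibroblast-like cells. None of its 9 genes was among the 10 that led the fibroblast-like cluster, with Draxin and Kng2 first. These percentages thus cannot measure fibroblast RNA in those classes, and how much it added to their Tnfsf11 was not tested. After each cell had been thinned to 2000 UMIs, at least 1 Tnfsf11 UMI was seen in 23.9% of fibroblast-like cells (141 of 591, exact binomial interval 20.5 to 27.5%), 11.7% of tendon-like, 8.81% of T-like, 9.55% of osteoblast-like and 3.31% of chondrocyte-like cells of library MGJ. Before thinning, the shares were 62.2%, 36.7%, 11.1%, 15.7% and 13.1%. Thinning left out 7 fibroblast-like, 19 tendon-like, 33 T-like, 141 osteoblast-like and 30 chondrocyte-like cells. Mature neutrophil-like cells, chosen with the values in view as a class that should lack the transcript, had it in 0 of 513 cells (interval up to 0.717%), and in 0.121% before thinning. By Tnfsf11 level they ranked 16 of 18 classes (0.414 CPM), while myeloid progenitor-like cells had 10.7 CPM (31 UMIs). The share in mature neutrophil-like cells thus cannot give the level of free RNA in other classes. Their median depth was 2334.5 UMIs, against 17218 in fibroblast-like cells.

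Tnfsf11 (ENSMUSG00000022015) lies on the minus strand of chromosome 14 (78277445 to 78308043, GRCm38). The 300 bases around its start, from 250 bases before to 50 bases after it, are shown because the level of Tnfsf11 differed so widely between the stromal classes of library MGJ. The RefSeq window (GRCm38.p6) at chr14:78307994-78308293 is written 5′ to 3′ on the strand of the gene, with a TATA match in capitals.
Tnfsf11: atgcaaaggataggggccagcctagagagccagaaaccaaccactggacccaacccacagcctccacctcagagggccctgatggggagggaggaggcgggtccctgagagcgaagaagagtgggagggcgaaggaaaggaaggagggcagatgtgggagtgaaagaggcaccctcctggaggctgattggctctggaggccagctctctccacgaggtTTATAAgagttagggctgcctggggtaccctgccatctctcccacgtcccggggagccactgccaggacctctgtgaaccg
The capitals cover TATAA and, on the other strand, the overlapping TTATA, at positions -30 and -31 from the start. Of 32851 promoter windows of this length, 24.9% held this motif on one strand or the other. A RUNX core, TGTGGT, was searched on both strands and was not present in this window, and 16.8% of all windows held it. The motifs were chosen with the sequences in view, and a match is a description of letters, not a measured site.

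Tnfrsf11b was highest in chondrocyte-like cells of both libraries. It stood at 208 CPM in library MGJ (10955 UMIs in 2479 cells), 5.13 times the level in all other cells (interval 4.93 to 5.34), and at 561 CPM in library MGJ2 (2240 UMIs in 131 cells), 139 times (interval 121 to 161). These cells held 77.4% of the Tnfrsf11b UMIs of library MGJ and 91.1% of those of library MGJ2. Osteoblast-like cells followed with 148 CPM (387 UMIs) and 121 CPM (48 UMIs), below chondrocyte-like cells by ratios of 1.41 (interval 1.27 to 1.56) and 4.64 (interval 3.49 to 6.31). In library MGJ, tendon-like cells had 64.4 CPM (1031 UMIs) and fibroblast-like cells 20.2 CPM (215 UMIs). Chondrocyte markers stood in osteoblast-like cells at 23.1% (MGJ) and 5.84% (MGJ2) of their level in chondrocyte-like cells, against 70.9% and 21.5% for Tnfrsf11b, and their part in the Tnfrsf11b level of osteoblast-like cells was not tested. The gene, ENSMUSG00000063727, lies on the minus strand of chromosome 15 (54250619 to 54278484, GRCm38).

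The naming of 1 cluster weighed on these ratios. In 4 reclusterings, the cluster led by Col10a1 lost its name because 2 osteoblast markers came among its 10 leading genes, and the ratio of Tnfrsf11b in library MGJ was then 1.88 to 1.98. With that cluster kept as chondrocyte-like, an alternative added after the values were seen, it was 5.90 to 7.18, and with cells weighted equally it was 9.91. In library MGJ2 the ratio was 7.48 at resolution 2, where the cluster lost its name, and 205 to 324 with it kept in the reclusterings. After thinning to 2000 UMIs, a Tnfrsf11b UMI was seen in 628 of 2449 chondrocyte-like cells (25.6%, interval 23.9 to 27.4%) of library MGJ and in 58 of 131 (44.3%, interval 35.6 to 53.2%) of library MGJ2, against 2.07% and 0.256% of T-like cells, taken with the values in view as the class that should lack the remaining genes. Without thinning, the shares were 64.4% and 76.3% of chondrocyte-like cells, against 2.65% and 0.741% of T-like cells, whose median depths were 3075.5 and 5113 UMIs against 21061 and 29235.

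Within chondrocyte-like cells, hypertrophic-like cells were compared with the others, since hypertrophic cartilage is the part that osteoclast-lineage cells resorb. Hypertrophic-like cells, the sub-cluster that scored highest on Col10a1, Ihh and Panx3, were 470 of the 2479 cells of library MGJ and 69 of the 131 of library MGJ2. Tnfrsf11b was higher in them in both libraries, at 430.3 against 159.6 CPM in library MGJ (ratio 2.70, interval 2.59 to 2.80) and at 819 against 309.6 CPM in library MGJ2 (ratio 2.65, interval 2.41 to 2.91). In library MGJ, Tnfsf11 was at 16.5 CPM in the hypertrophic-like cells and at 20.3 CPM in the others (ratio 0.810, interval 0.678 to 0.962). That ratio was between 0.281 and 0.463 in the 5 reclusterings with other settings, and 0.820 with cells weighted equally. In library MGJ2 it had 74 UMIs in hypertrophic-like cells (37.6 CPM) and 8 UMIs in the others (3.95 CPM), a ratio of 9.51 (interval 4.58 to 22.9). Csf1 went the same ways, with a ratio of 0.586 in library MGJ (16.3 against 27.9 CPM) and 3.81 in library MGJ2 (50.8 against 13.3 CPM). The Tnfrsf11b ratio of library MGJ was between 1.09 and 1.88 in the same reclusterings, and only 1 alternative gave a value for library MGJ2. In all of these reclusterings except separate clustering, the Col10a1-led cluster had lost its name and its cells were left out. The Tnfsf11 and Tnfrsf11b ratios there thus compared other cells than the main ones.

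Across the 6 chondrocyte-like sub-clusters of at least 50 cells in library MGJ, Tnfrsf11b ran from 60.1 to 430.3 CPM. The lowest was the sub-cluster led by Kctd14 and Slc40a1. The sub-cluster led by Ppa1 and Elf3 (192 CPM), that led by Mmp3 and Penk (169 CPM), the proliferating sub-cluster led by Hmmr and Pbk (135 CPM) and that led by Espn and Cdsn (130.1 CPM) lay between. Tnfsf11 was highest in the Mmp3-led sub-cluster, at 36.5 CPM (715 UMIs in 946 cells), 2.22 times the hypertrophic-like sub-cluster (interval 1.86 to 2.66), and lowest in the Kctd14-led one, at 3.59 CPM (15 UMIs). The sub-clusters of highest Tnfsf11 and of highest Tnfrsf11b were thus not the same.

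**Figure D1:**
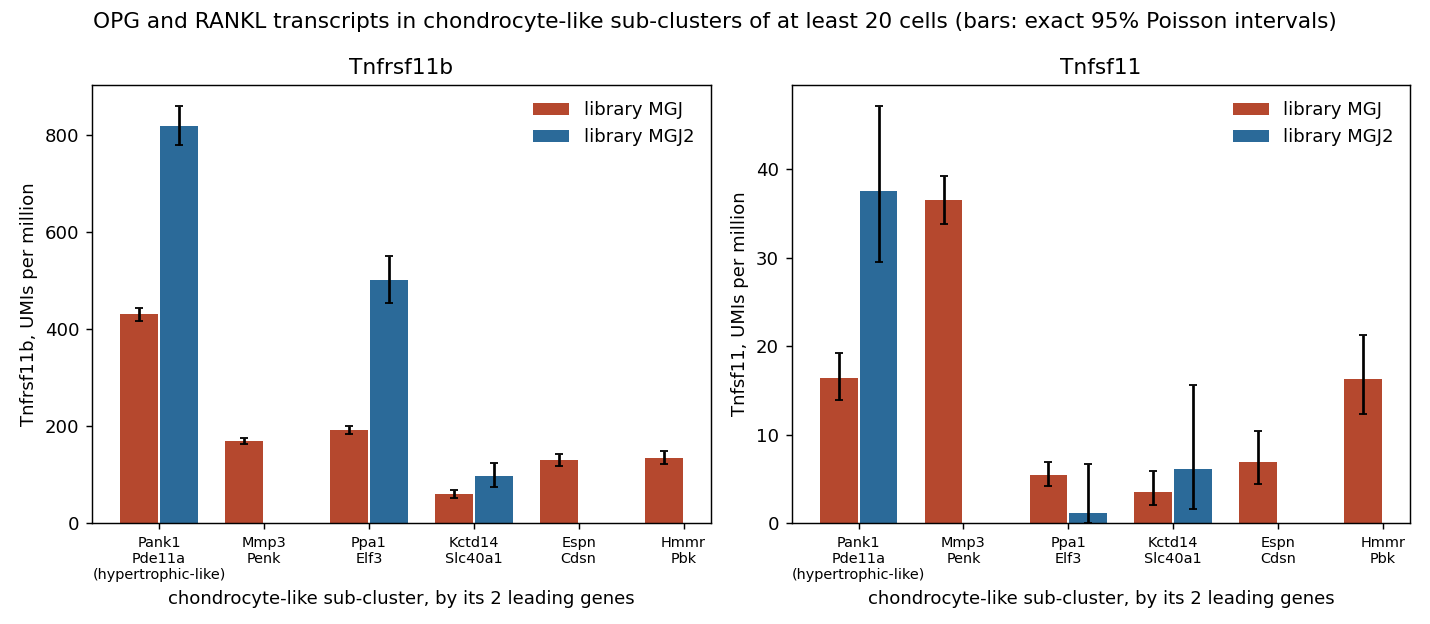
Levels of Tnfsf11 and Tnfrsf11b in CPM in the chondrocyte-like sub-clusters of each library, with exact 95% Poisson intervals as bars. In library MGJ, Tnfrsf11b peaked in the hypertrophic-like sub-cluster (430.3 CPM) and Tnfsf11 in the Mmp3-led one (36.5 CPM).

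The number of Tnfsf11 UMIs per Tnfrsf11b UMI set the ligand against its decoy in the same cells. How well each of the transcripts is captured is not known, so the number is compared between classes only. In library MGJ, fibroblast-like cells had 11.1 Tnfsf11 UMIs per Tnfrsf11b UMI (2377 to 215, interval 9.61 to 12.8) and T-like cells 12 (72 to 6, interval 5.25 to 33.8). Tendon-like cells had 1.36 (interval 1.26 to 1.48), osteoblast-like cells 0.333 (interval 0.271 to 0.408) and chondrocyte-like cells 0.0943 (interval 0.0884 to 0.101). Fibroblast-like, tendon-like, osteoblast-like and chondrocyte-like cells thus stood in that order with no overlap of their intervals in the main clustering. Only 1 reclustering gave a value for osteoblast-like cells of this library (0.349), and 3 gave one for tendon-like cells. In the others the full order could not be checked. In library MGJ2, chondrocyte-like cells had 0.0366 (82 to 2240, interval 0.0290 to 0.0456), osteoblast-like cells 0.146 (7 to 48) and T-like cells 4.56 (41 to 9, interval 2.18 to 10.7). The value of fibroblast-like cells fell to 2.93 at a limit of 10% mitochondrial UMIs and to 3.06 at a resolution of 0.5, settings in which no tendon-like class of its own remained. That of T-like cells in library MGJ fell to 2.60 (interval 1.74 to 3.96) when the libraries were clustered separately, and that of tendon-like cells rose to 2.15 at resolution 2. Chondrocyte markers stood in fibroblast-like, tendon-like and T-like cells of library MGJ at 3.74%, 11.8% and 1.21% of their chondrocyte level. Tnfrsf11b stood there at 9.72%, 30.9% and 3.52%, and how much chondrocyte RNA added to its counts was not tested.

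**Figure D2:**
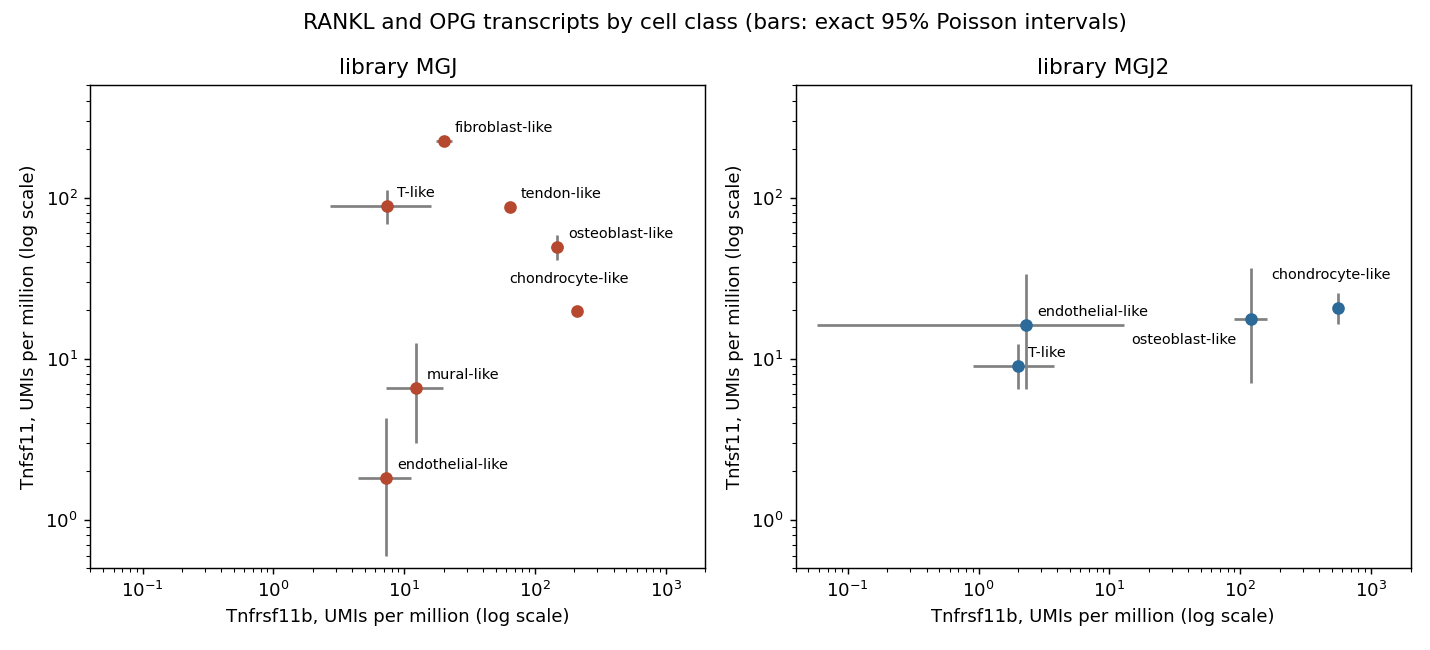
Tnfsf11 level (vertical axis) against Tnfrsf11b level (horizontal axis) in CPM, both on log scales, 1 point per cell class and 1 panel per library, with exact 95% Poisson intervals as bars. Fibroblast-like cells of library MGJ lie at the upper middle (224 and 20.2 CPM), and chondrocyte-like cells lie at the right in both panels.

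Among classes with 50 or more cells, Csf1 was highest in mature neutrophil-like cells. It stood there at 331 CPM in library MGJ (800 UMIs in 826 cells, interval 308 to 355), 5.89 times the level in all other cells (interval 5.47 to 6.34), and at 364 CPM in library MGJ2, 23.3 times (interval 21.4 to 25.3). The 19 reticular stromal-like cells of library MGJ2 stood above that, at 501 CPM (102 UMIs, ratio 1.38 to mature neutrophil-like cells, interval 1.12 to 1.68). Mural-like (134 CPM, 184 UMIs), endothelial-like (90.1 CPM, 247 UMIs) and fibroblast-like cells (73.8 CPM) followed in library MGJ, and endothelial-like cells (108 CPM) in library MGJ2. Tendon-like (48.6 CPM), osteoblast-like (37.0 CPM) and chondrocyte-like cells (25.8 CPM, 1360 UMIs) stood lower, and in library MGJ2 osteoblast-like and chondrocyte-like cells had 35.2 and 31.8 CPM. Neutrophil markers stood in the mural-like, endothelial-like and fibroblast-like cells of library MGJ at 1.02%, 2.82% and 0.894% of their level in mature neutrophil-like cells, against 40.4%, 27.2% and 22.3% for Csf1. Osteoclast-like cells had 15.3 CPM in library MGJ and 9.68 CPM in library MGJ2. In library MGJ, 15 mast or basophil-like cells had 173 CPM (15 UMIs, interval 96.8 to 285). Mature neutrophil-like cells held 9.93% of the Csf1 UMIs of that library, and cells without a name held 41.0% (3305 UMIs, 247 CPM).

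The Csf1 level of neutrophils differed between clusters. The cluster led by Ifit1 and Rsad2, interferon-induced genes, had 734 CPM (648 UMIs in 418 cells of library MGJ), and the cluster led by Gm39321 had 535 CPM in library MGJ (76 UMIs in 78 cells) and 538 CPM in library MGJ2 (1740 UMIs in 1463 cells). The cluster led by Retnlg and Mmp8, granule genes of neutrophils, had 54.6 and 53.4 CPM. In library MGJ, 2 clusters of low UMI count with no name, led by Ccl3 and Ccl4 and by Cstdc4 and Stfa2l1, had 468 and 353 CPM. The median UMI count of the Ifit1-led cluster was only just above the limit that left those without a name. Without it, the Csf1 ratio of mature neutrophil-like cells in library MGJ was 1.76 (interval 1.49 to 2.07), and with the low-count clusters named it was 11.4 (interval 10.95 to 11.96). The level of mature neutrophil-like cells without it was 99.1 CPM (152 UMIs in 408 cells), below mural-like cells (ratio 0.741, interval 0.594 to 0.924) and not separable from endothelial-like cells (ratio 1.10, interval 0.893 to 1.35). After thinning to 2000 UMIs, 25.0% of mature neutrophil-like cells in library MGJ and 28.8% in library MGJ2 had a Csf1 UMI, against 1.04% and 0.256% of T-like cells. The thinned share left out 313 of 826 and 574 of 1906 mature neutrophil-like cells, and the shares without thinning were 37.5% and 34.1%, against 4.87% and 0.370% of T-like cells.

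Csf1 (ENSMUSG00000014599) lies on the minus strand of chromosome 3 (107741048 to 107760469, GRCm38). The RefSeq window (GRCm38.p6) at chr3:107760420-107760719 is shown because Csf1 was the only one of the 8 genes with an NF-kappaB match among the 4 windows found. It runs 5′ to 3′ on the strand of the gene, with that match in capitals.
Csf1: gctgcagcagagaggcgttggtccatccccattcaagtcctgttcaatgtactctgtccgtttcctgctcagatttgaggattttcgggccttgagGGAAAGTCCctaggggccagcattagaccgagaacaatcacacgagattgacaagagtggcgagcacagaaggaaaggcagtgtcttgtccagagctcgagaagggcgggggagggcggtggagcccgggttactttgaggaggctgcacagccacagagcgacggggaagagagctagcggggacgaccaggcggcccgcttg
The capitals are the reverse strand of GGACTTTCC, at position -154 from the start, and 113 of 32851 windows (0.344%) held this motif. Windows were found for Tnfsf11, Tnfrsf11a, Csf1 and Csf3r.

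Il34, the other ligand of CSF1R, was sparse, with 305 UMIs (MGJ) and 33 UMIs (MGJ2). Mural-like cells of library MGJ had 38.5 CPM (53 UMIs in 154 cells), 19.9 times the level in all other cells (interval 14.5 to 26.9) and 54.7 times with cells weighted equally. Every other class of that library was at or below 5.1 CPM. Chondrocyte-like cells had 2.60 CPM, 1.22 times the level in all other cells (interval 0.969 to 1.54), and were not called higher. Being many and rich in RNA, they still held 44.9% of the Il34 UMIs of the library (137 UMIs). The mural marker list stood in chondrocyte-like cells at 0.171% of its mural level, against 6.75% for Il34. In library MGJ2, 13 of the 33 UMIs were in chondrocyte-like cells (3.25 CPM) and 10 in only 9 mural-like cells. No Il34 UMI was found in 193 thinned T-like cells of library MGJ (interval up to 1.89%), against 9.49% of mural-like cells (13 of 137, 22.7% without thinning). Il34 (ENSMUSG00000031750) lies on chromosome 8 from 110741829 to 110805924, on the minus strand.

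Csf3 was spread over vessel, stromal and myeloid classes. In library MGJ it stood at 726 CPM in endothelial-like cells (1990 UMIs in 278 cells, interval 695 to 759), at 413 CPM in macrophage-like, 385 CPM in fibroblast-like, 384 CPM in mature neutrophil-like and 177 CPM in monocyte-like cells. Chondrocyte-like cells had 6.27 CPM (330 UMIs), and osteoblast-like cells 21.0 CPM. In library MGJ2, endothelial-like cells had 111 CPM and mature neutrophil-like cells 106 CPM, monocyte-like cells 44.7 CPM, and a single Csf3 UMI lay in chondrocyte-like cells. The highest level of any cluster was that of the unnamed cluster led by Ccl3 and Ccl4 in library MGJ, at 1118 CPM (4295 UMIs in 2089 cells), followed among neutrophils by the Ifit1-led cluster with 883 CPM. Within mature neutrophil-like cells of library MGJ, the Retnlg-led cluster had 83.4 CPM. Without the Ifit1-led cluster, Csf3 in mature neutrophil-like cells of library MGJ turned from 2.54 times to 0.638 times the level of all other cells. The ratio of fibroblast-like cells, 2.84, was 1.05 at a limit of 10% mitochondrial UMIs and 1.06 at resolution 0.5, and that of macrophage-like cells, 3.20, was 1.24 when the libraries were clustered separately. Neutrophil markers stood in endothelial-like cells at 2.82% of their neutrophil level in library MGJ and at 0.426% in library MGJ2, against 189% and 104% for Csf3. After thinning, 33.5% of endothelial-like cells (72 of 215), 27.5% of macrophage-like and 22.2% of fibroblast-like cells of library MGJ had a Csf3 UMI, against 1.04% of T-like cells (36.7%, 39.4%, 41.5% and 2.65% without thinning). The gene, ENSMUSG00000038067, lies on the plus strand of chromosome 11 (98701263 to 98703629, GRCm38).

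**Figure D3:**
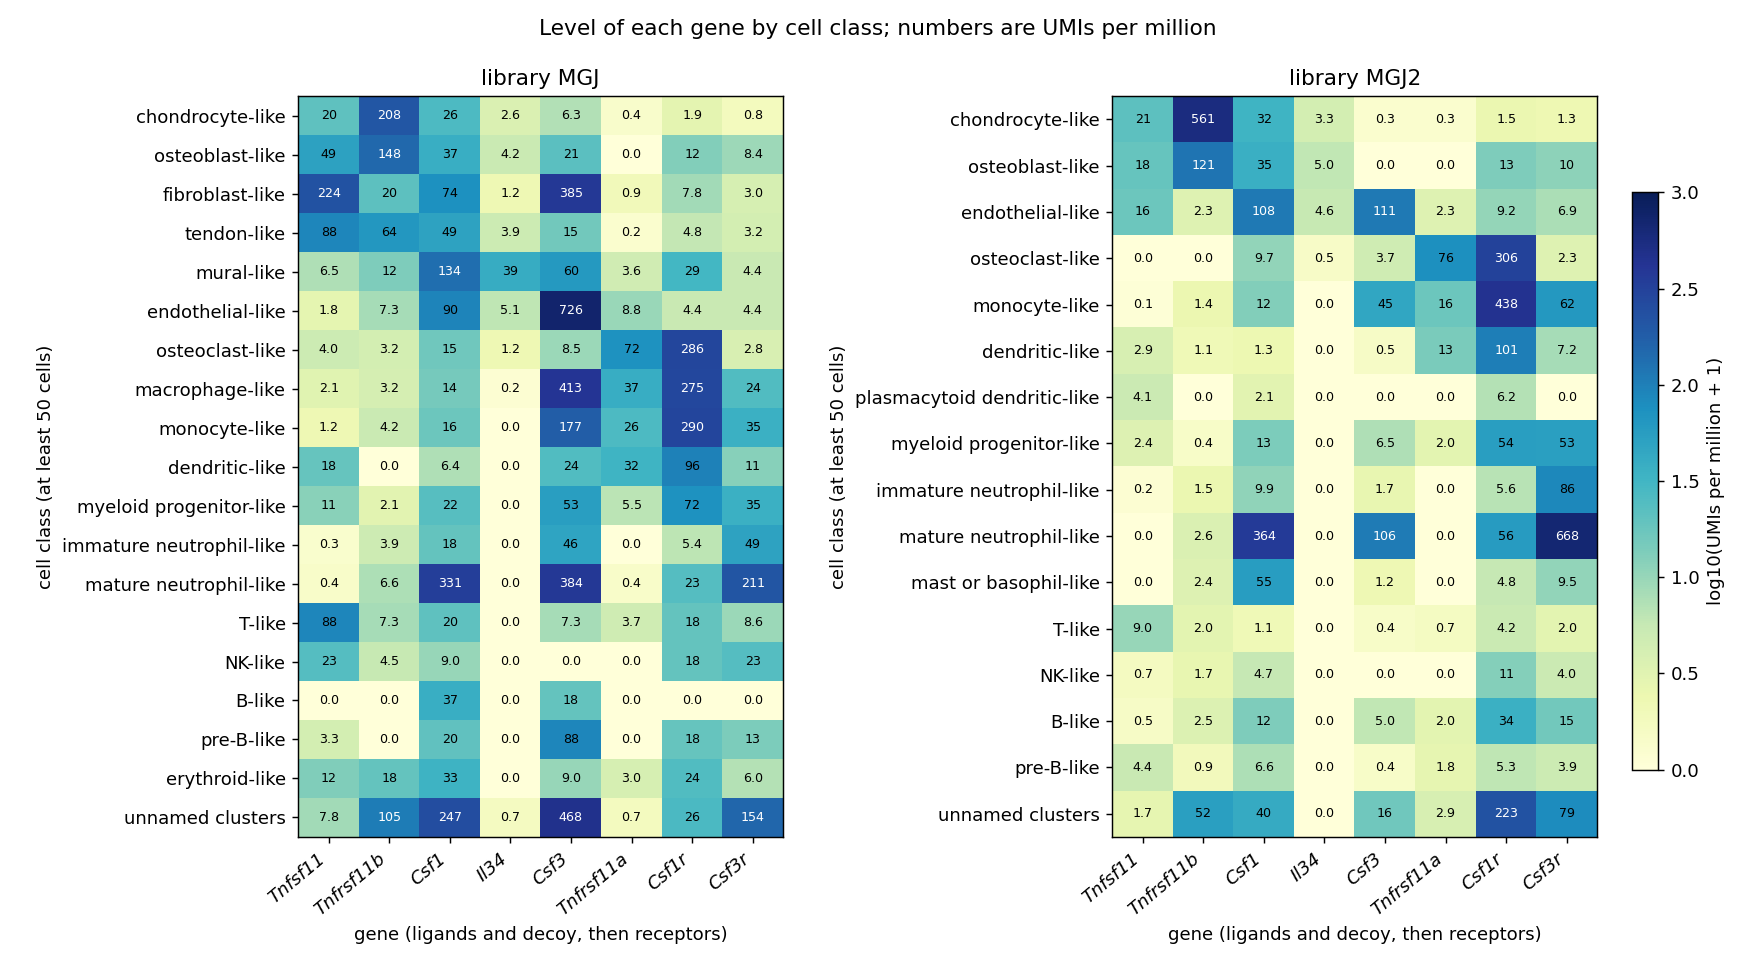
Level of each of the 8 genes (columns) in every named class of at least 50 cells and in the unnamed clusters (rows), in CPM, coloured by log10 of the level plus 1, with 1 panel per library. Tnfsf11 is darkest in fibroblast-like cells of library MGJ, Tnfrsf11b in chondrocyte-like cells, Tnfrsf11a in osteoclast-like cells and Csf3r in mature neutrophil-like cells.

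The receptors were examined in myeloid cells. Among classes with 50 or more cells, Tnfrsf11a was highest in osteoclast-like cells, at 71.7 CPM in library MGJ (ratio 12.9 to all other cells, interval 10.9 to 15.2) and 75.6 CPM in library MGJ2 (ratio 13.2, interval 10.9 to 15.96). The ratio in library MGJ was 7.13 at a limit of 10% mitochondrial UMIs. In library MGJ2, the 20 macrophage-like cells had 86.2 CPM (22 UMIs among 255137), and the order of the classes could not be told (ratio of osteoclast-like to macrophage-like cells 0.877, interval 0.560 to 1.44). Macrophage-like cells of library MGJ had 37.4 CPM, lower than osteoclast-like cells by a ratio of 1.92 (interval 1.60 to 2.29), and they held 51.2% of the Tnfrsf11a UMIs of the library. Dendritic-like cells had 31.9 CPM (MGJ) and 13.4 CPM (MGJ2), and monocyte-like cells 25.8 and 16.02 CPM. Immature neutrophil-like cells had no Tnfrsf11a UMI in either library. Osteoclast markers stood in macrophage-like cells at 5.31% and in monocyte-like cells at 1.82% of their osteoclast level in library MGJ, against 52.1% and 35.9% for Tnfrsf11a. Endothelial-like cells of library MGJ had 8.8 CPM, where macrophage markers stood at 1.36% of their macrophage level and Tnfrsf11a at 23.4%. Tnfrsf11a (ENSMUSG00000026321) lies on the plus strand of chromosome 1, from 105780718 to 105847981 in GRCm38.

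Csf1r did not mark osteoclast-like cells off from their neighbours. In library MGJ, monocyte-like (290.3 CPM), osteoclast-like (286 CPM) and macrophage-like cells (275 CPM) could not be ordered, with a ratio of 0.984 for osteoclast-like over monocyte-like cells (interval 0.8999 to 1.08) and 1.04 for osteoclast-like over macrophage-like cells (interval 0.956 to 1.13). In library MGJ2, monocyte-like cells stood at 438 CPM and osteoclast-like cells at 306 CPM, a ratio of 0.699 (interval 0.644 to 0.757). Most monocyte-like cells were in the cluster led by Ms4a4c in library MGJ and in that led by E230029C05Rik and Adgre4 in library MGJ2. Within library MGJ2 these clusters had 284 CPM (57 cells) and 445 CPM (1407 cells). Dendritic-like cells had 95.6 and 101 CPM, and myeloid progenitor-like cells 71.9 and 54.5 CPM. The gene, ENSMUSG00000024621, lies on the plus strand of chromosome 18 (61100598 to 61132149, GRCm38).

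A UMI of both Tnfrsf11a and Csf1r was seen, at 2000 UMIs per cell, in 5.88% of osteoclast-like (6 of 102), 3.63% of macrophage-like (45 of 1238) and 2.27% of monocyte-like cells (19 of 838) of library MGJ. The intervals of these 3 shares overlapped (2.19 to 12.4%, 2.66 to 4.83% and 1.37 to 3.52%). In library MGJ2 it was seen in 3.28% of osteoclast-like (2 of 61, interval 0.400 to 11.3%) and 1.80% of monocyte-like cells (26 of 1448, interval 1.18 to 2.62%). The shares describe joint capture at this depth, and whether the receptors occur together beyond their single shares was not tested. Single genes were seen in more cells, with Csf1r in 47.1% and Tnfrsf11a in 11.8% of osteoclast-like cells of library MGJ and in 44.3% and 11.5% of those of library MGJ2. T-like cells had Csf1r in 1.04% and 0.513%, and Tnfrsf11a in 0.518% and 0% of cells (0 of 780, interval up to 0.472%). Without thinning, 91.7% and 91.9% of osteoclast-like cells had a Csf1r UMI and 68.8% and 79.0% a Tnfrsf11a UMI, against 2.65% and 1.48%, and 1.33% and 0.247%, of T-like cells. Osteoclast-like cells had a median depth of 21742 UMIs (MGJ) and 34310 UMIs (MGJ2). Thinning left out 7 osteoclast-like, 66 macrophage-like and 78 monocyte-like cells of library MGJ.

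**Figure D4:**
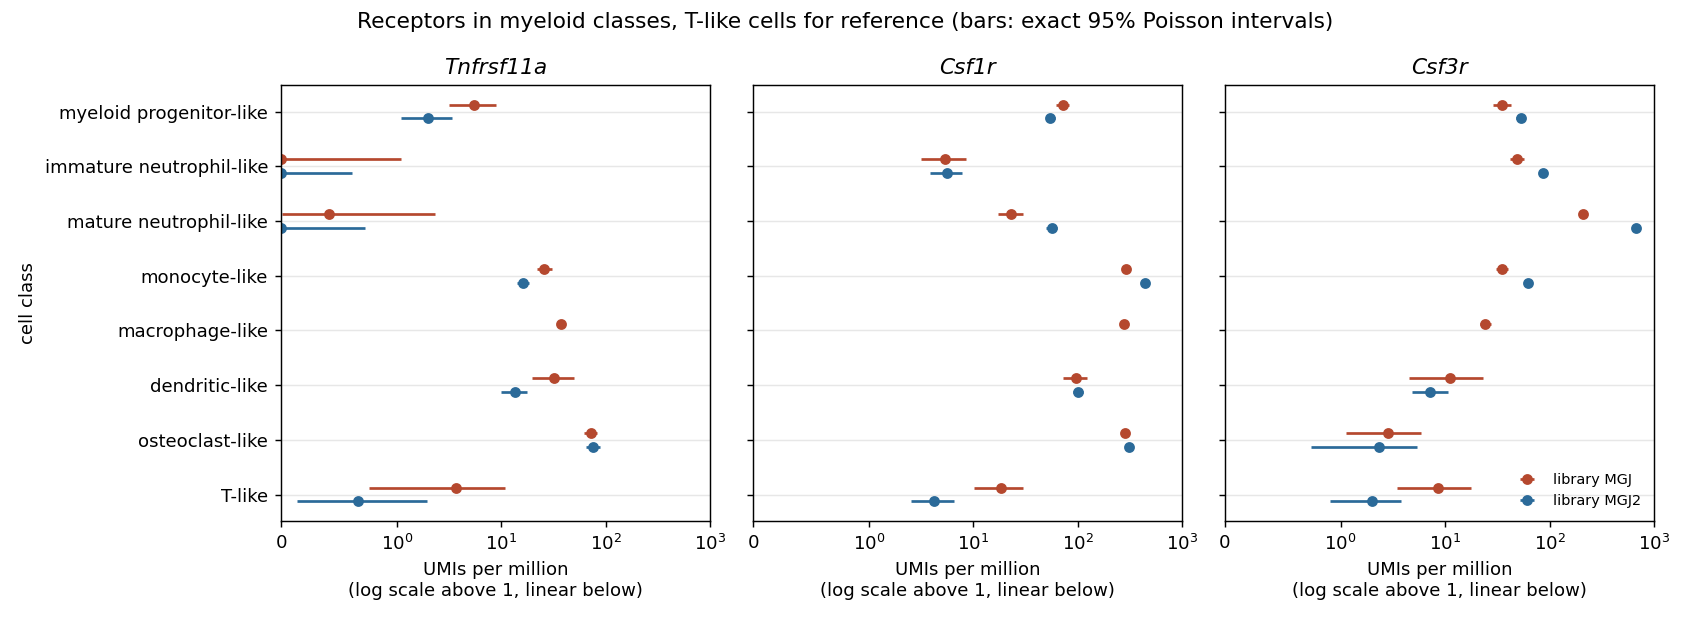
Tnfrsf11a, Csf1r and Csf3r levels in CPM in the myeloid classes of each library, with exact 95% Poisson intervals as bars. Among the classes of 50 or more cells shown, Tnfrsf11a is highest in osteoclast-like cells (71.7 and 75.6 CPM), Csf1r is close to level over monocyte-like, osteoclast-like and macrophage-like cells of library MGJ, and Csf3r is highest in mature neutrophil-like cells.

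Csf3r was highest in mature neutrophil-like cells and lower in their precursors. The levels were 211 CPM in mature neutrophil-like, 48.5 CPM in immature neutrophil-like and 35.1 CPM in myeloid progenitor-like cells of library MGJ. Library MGJ2 had 668, 86.2 and 52.8 CPM. Against all other cells, mature neutrophil-like cells had ratios of 8.98 (MGJ, 2.77 to 27.8 over the alternatives) and 17.7 (MGJ2). Mature over immature neutrophil-like cells gave a ratio of 4.34 (interval 3.63 to 5.21) and 7.75 (interval 7.07 to 8.52), and immature neutrophil-like over myeloid progenitor-like cells 1.38 (interval 1.07 to 1.79) and 1.63 (interval 1.43 to 1.87). Over the alternatives, the former ratio was as low as 2.79 (MGJ, at 10% mitochondrial UMIs) and 3.88 (MGJ2, at resolution 0.5). The latter ratio was 0.870 in library MGJ with each cell weighted equally, and at resolution 0.5 it was 2.54 (MGJ) and 3.63 (MGJ2). Csf1 and Csf3 also stood higher in mature than in immature neutrophil-like cells, by 18.2 and 8.27 times (MGJ) and by 36.7 and 64.3 times (MGJ2), while neither ligand was higher in immature neutrophil-like than in myeloid progenitor-like cells. Csf1r took another course, from 71.9 CPM in myeloid progenitor-like to 5.36 CPM in immature and 22.8 CPM in mature neutrophil-like cells of library MGJ. In library MGJ2 the course was from 54.5 to 5.61 and 56.5 CPM. Monocyte markers stood in mature neutrophil-like cells at 20.5% and 10.4% of their monocyte level, against 7.84% and 12.9% for Csf1r, and their part in that level was not tested.

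Most mature neutrophil-like cells were in the Ifit1-led and Retnlg-led clusters in library MGJ and in the Gm39321-led and Retnlg-led clusters in library MGJ2. Csf3r was higher in the Gm39321-led than in the Retnlg-led cluster of both libraries, at 443 against 137 CPM and 797 against 443 CPM. After thinning, 25.7% of mature neutrophil-like cells in library MGJ and 67.2% in library MGJ2 had a Csf3r UMI, against 1.55% and 1.03% of T-like cells (37.0% and 75.7% without thinning, against 1.77% and 1.11%). Monocyte-like cells had 35.1 CPM (MGJ) and 62.0 CPM (MGJ2), where neutrophil markers stood at 5.32% and 4.93% of their neutrophil level and Csf3r at 16.7% and 9.28%.

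Csf3r (ENSMUSG00000028859) lies on the plus strand of chromosome 4, from 126024550 to 126044440 in GRCm38. Its RefSeq window (GRCm38.p6) at chr4:126024409-126024708 is shown because it was the only window of the 4 with a match to GAGGAA, the core bound by PU.1, a factor of myeloid cells. The match stands in capitals at position -86 from the start.
Csf3r: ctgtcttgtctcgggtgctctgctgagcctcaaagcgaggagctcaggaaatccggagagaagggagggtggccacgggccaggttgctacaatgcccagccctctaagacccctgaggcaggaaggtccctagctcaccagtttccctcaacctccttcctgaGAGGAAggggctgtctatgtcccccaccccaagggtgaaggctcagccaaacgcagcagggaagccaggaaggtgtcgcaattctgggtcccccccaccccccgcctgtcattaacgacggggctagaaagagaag
Both strands were searched, and 28.3% of the 32851 windows held this motif.

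**Figure D5:**
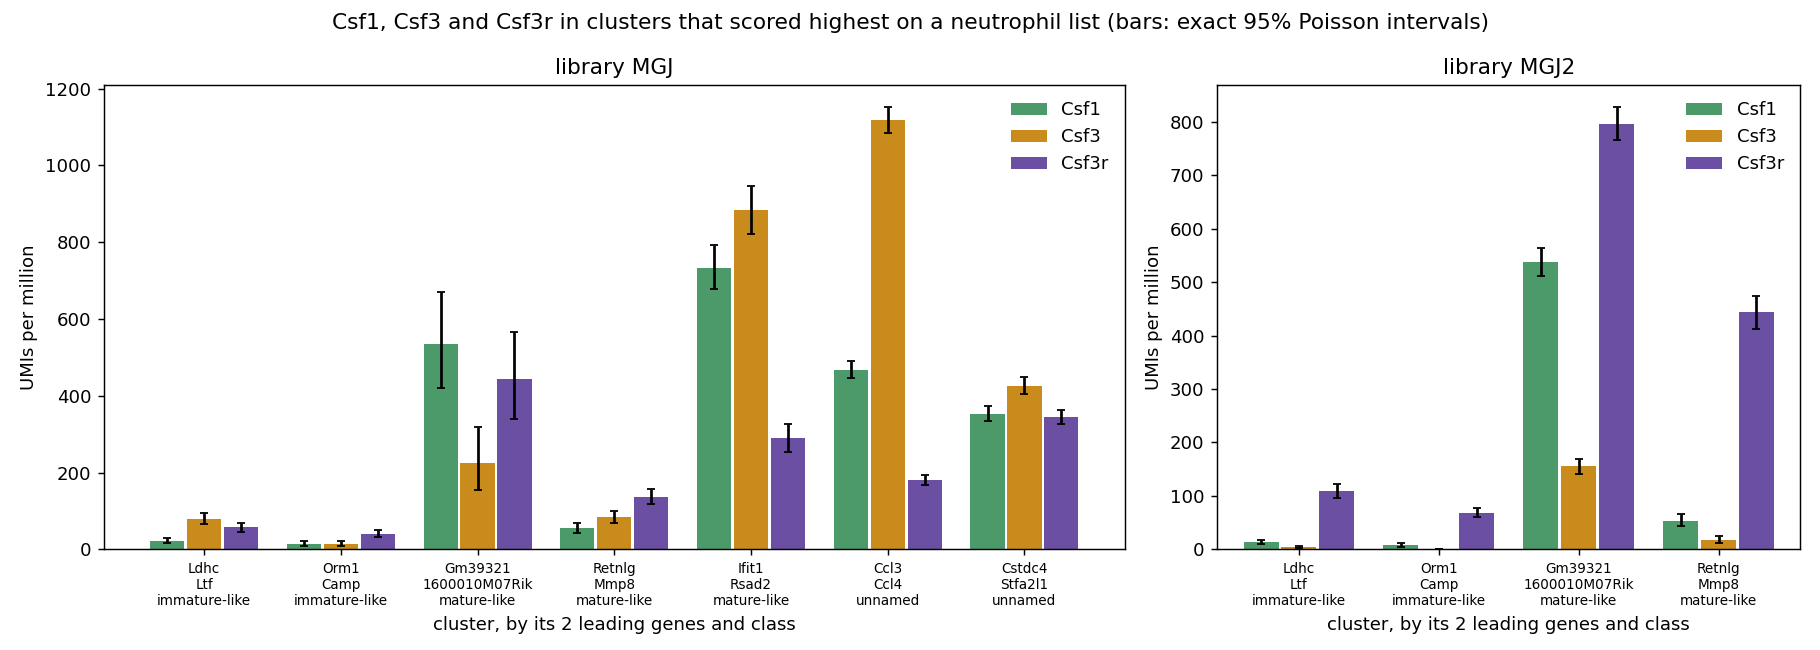
Csf1, Csf3 and Csf3r levels in CPM in the clusters of each library whose best marker list was a neutrophil list, named by their 2 leading genes and class, with exact 95% Poisson intervals as bars. The Gm39321-led and Ifit1-led clusters stand high in Csf1 (535 and 734 CPM in library MGJ), and the Retnlg-led cluster is low in Csf1 and Csf3 with Csf3r present.

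Counted over the 8 genes, 2 were higher (Tnfsf11, Csf3) and 4 lower (Tnfrsf11a, Tnfrsf11b, Csf1r, Csf3r) in fibroblast-like cells of library MGJ, where 9.83% of 14737 genes tested were higher and 19.2% lower. In chondrocyte-like cells, 1 was higher (Tnfrsf11b) and 6 lower in library MGJ, against 12.5% and 25.6% of all genes. In library MGJ2, where Il34 had too few UMIs to count, 2 of 7 (Tnfsf11, Tnfrsf11b) were higher and 4 lower in these cells, against 19.7% and 31.2% of 13067 genes. Osteoclast-like cells had Tnfrsf11a and Csf1r higher in both libraries, with 5 of the 8 and 5 of the 7 genes lower, while 16.4% and 21.8% of all genes were higher and lower in library MGJ, against 13.6% and 27.5% for library MGJ2. Mature neutrophil-like cells had Csf1, Csf3 and Csf3r higher in both libraries, with 5 and 4 genes lower. There, 8.34% of all genes were higher and 52.8% lower in library MGJ, against 8.65% and 67.6% for library MGJ2. The genes are known for expression in few cell types, and the counts only describe where they lay.

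The wider pathway was read from 46 genes in 6 lists, chosen with earlier results of these data known. In fibroblast-like cells of library MGJ, 7 of the 46 were higher and 17 lower (median log2 ratio -0.38, against -0.10 over all genes). Over all genes, 9.83% were higher and 19.2% lower. Among 7 receptors through which hormones and cytokines raise RANKL in stroma, 4 were higher. These were Il1r1, the interleukin-1 receptor (181 against 26.4 CPM, ratio 6.86), Il6st, the signalling chain shared by the interleukin-6 family (ratio 3.09), Ptger4, a prostaglandin E2 receptor (ratio 2.29), and Osmr, the oncostatin M receptor (ratio 2.18). Pth1r, the parathyroid hormone receptor, was lower (ratio 0.0734), as was Ptger2, another prostaglandin E2 receptor (ratio 0.469). Mmp14, a membrane protease, was higher (ratio 2.43), and the sheddases Adam10 and Adam17 were not called.

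In chondrocyte-like cells, 5 of 46 pathway genes were higher and 27 lower in library MGJ, and 9 of 44 measured genes higher and 29 lower in library MGJ2 (medians -1.61 and -2.24 on the log2 scale, against -0.19 and -0.33 over all genes). Over all genes, 12.5% and 19.7% were higher and 25.6% and 31.2% lower. Pth1r stood at 821 CPM in library MGJ (ratio 7.41) and at 1302 CPM in library MGJ2 (ratio 84.1). Lgr4, a second receptor of RANKL, was higher in both (28.1 and 34.3 CPM, ratios 3.17 and 10.4), as were Vdr, the vitamin D receptor (ratios 2.01 and 2.61), and Nfatc1, a transcription factor known from osteoclast formation (ratios 2.47 and 2.93). Of the 11 genes of the RANK signalling list, only Nfatc1 was higher and 4 were lower in library MGJ. In library MGJ2, 2 of the 11 were higher and 7 lower. All measured genes of the ITAM co-stimulation list, adaptors and receptors of myeloid cells, were lower, 7 of 7 and 6 of 6. Mmp14 was lower in library MGJ (ratio 0.252) and higher in library MGJ2 (ratio 2.53).

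In osteoclast-like cells, 11 of 46 pathway genes were higher and 15 lower in library MGJ, and 5 of 44 higher and 20 lower in library MGJ2 (medians -0.33 and -0.84 on the log2 scale, against -0.03 and -0.34 over all genes). Over all genes, 16.4% and 13.6% were higher and 21.8% and 27.5% lower. Nfatc1 (376 and 533 CPM, ratios 2.57 and 4.72), Mitf, a partner factor in osteoclasts (ratios 4.76 and 4.03), Trem2, a receptor that signals through Tyrobp (ratios 4.30 and 6.84), and Sdc1, a heparan sulphate proteoglycan (ratios 3.71 and 12.1), were higher in both libraries. Oscar, an osteoclast receptor for collagen, had 108 UMIs in these cells (43.5 CPM) against 0.0542 CPM elsewhere in library MGJ. Of the 11 genes of the RANK signalling list, 4 were higher and 2 lower in library MGJ, and 2 higher and 3 lower in library MGJ2. Nfkb1 (ratios 0.427 and 0.322) and Relb (0.422 and 0.369) were lower in both. Of the ITAM co-stimulation list, 4 of 7 genes were higher in library MGJ, and 1 of 6 was higher and 1 lower in library MGJ2. In the CSF signalling list, 4 of 8 genes were lower in library MGJ and 7 of 8 genes in library MGJ2, Socs3 and Stat3 among them. In mature neutrophil-like cells, 9 of 46 and 6 of 44 pathway genes were higher and 19 and 23 lower (medians -0.55 and -1.25, against -1.74 and -2.13 over all genes, of which 8.34% and 8.65% were higher and 52.8% and 67.6% lower). Those higher in both libraries included Tyrobp (ratios 5.70 and 4.55), Fcer1g (4.68 and 2.32), Syk (3.33 and 2.14) and Csf2ra, the receptor chain of GM-CSF (3.86 and 2.64).

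Genes with the pattern most like each member were found from Pearson correlations of log2(CPM + 10) over 33 points, each a named class with 50 or more cells in 1 library, among 12783 genes. The points of a library share its depth and its free RNA, so the coefficients are descriptions. The nearest genes were Podnl1 (r = 0.84), Prrx2 (0.82) and Cpxm1 (0.81) for Tnfsf11, and Nipal2 (0.98), Chad (0.97) and Susd5 (0.97) for Tnfrsf11b. For Csf1 they were Pdlim7 (0.86), Tnfrsf23 (0.84) and Zfp503 (0.83), and for Csf3 they were Bcl10 (0.80), Hmox1 (0.79) and Casp4 (0.78). Tnfrsf11a was followed by Wwc1 (0.91), Dcstamp (0.90), a gene of osteoclast fusion, and Shtn1 (0.89). Csf1r had Dnase1l1 (0.89), Clec4a3 (0.87) and Cd68 (0.86), and Csf3r had Siglece (0.94), Trem1 (0.93) and Tlr4 (0.92). Il34, with 33 UMIs in library MGJ2, was not ranked.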

How the data were processed

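For each of the 2 10x Genomics 3′ libraries (version 3 chemistry), a filtered matrix of raw UMI counts was deposited by the authors, and its header names Cell Ranger 4.0.0. Their processing notes name Cell Ranger, Seurat and GRCm38. RNA free in the suspension adds UMIs to cells that do not express a gene, and no correction was made for it.

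Cells needed 200 detected genes and were allowed 20% mitochondrial UMIs. Doublets were called with Scrublet (scanpy 1.11.5, expected rate 0.8% per 1000 barcodes) and removed (140 and 222 barcodes). The 2000 most variable genes, without the members and pathway genes (54 in all), 30 principal components and 15 neighbours entered Leiden clustering of the pooled cells at resolution 1 (igraph 0.11.9, leidenalg 0.10.2), and chondrocyte-like clusters were divided at resolution 0.5. Clusters of 20 or more cells were named after the best of 26 marker lists when the score, the mean log2(CPM + 10) relative to all clusters, was at least 1 and 3 markers were detected. They stayed unnamed when markers of other classes led them, or when their median UMI count was under the library median divided by 3 with no own marker leading. Of the chondrocyte-like sub-clusters, 1 led by neutrophil markers was set aside (263 and 9 cells).

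Levels had exact Poisson, ratios exact conditional binomial and shares Clopper-Pearson intervals. Genes with at least 50 UMIs in a library were called. Shares came from 1 random thinning. The named genes were the 8 members, the pathway genes past the fold of 2 (up to 4 of each list) and the 3 most similar genes. Members, lists and rules were chosen with earlier results of these data known. The calls were tested on simulated Poisson counts with known fold changes. The simulation held no free RNA, no extra variation between cells and no misnamed clusters, so it does not cover them. Alternatives kept doublets, changed the mitochondrial limit, the resolution, the joint clustering, the weight of cells, the cells compared with and the thinning depth, and 5 were added after the values were seen. Python 3.11.15, numpy 2.4.6, scipy 1.17.1, pandas 2.3.3, scikit-learn 1.9.0 and matplotlib 3.10.9 were used.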

Additional observations from a re-analysis of the deposited data

Results flagged for a closer look

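Transcripts of the 8 genes were also present in the barcodes that the filters removed, which no comparison above uses, at levels above what 3 UMIs, the floor set for a count of 0, would give. In the 975 removed barcodes of library MGJ, the levels were 20.6 CPM for Tnfsf11 (76 UMIs), 8.11 CPM for Tnfrsf11a (30 UMIs), 52.2 CPM for Tnfrsf11b (193 UMIs), 38.1 CPM for Csf1 (141 UMIs), 58.4 CPM for Csf1r (216 UMIs), 2.70 CPM for Il34 (10 UMIs), 119 CPM for Csf3 (440 UMIs) and 18.1 CPM for Csf3r (67 UMIs). In the 425 removed barcodes of library MGJ2, Tnfsf11 stood at 1.32 CPM (4 UMIs), Tnfrsf11a at 7.61 CPM (23 UMIs), Tnfrsf11b at 13.6 CPM (41 UMIs), Csf1 at 62.2 CPM (188 UMIs), Csf1r at 156 CPM (472 UMIs), Csf3 at 15.2 CPM (46 UMIs) and Csf3r at 109.5 CPM (331 UMIs). Il34 had no UMI there. The Csf3r level of the removed barcodes of library MGJ lay below that of the kept cells (26.9 CPM), and that of library MGJ2 lay above it (92.6 CPM).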

How the results depend on the processing

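No paired analysis was possible because the labels give neither library a group or replicate. All alternatives were run, but some gave no value, mostly because the chondrocyte-like, tendon-like or osteoblast-like class of a library was lost or too small. A value counted as moved when it fell outside the interval of the main value, or, for a count of genes, changed by more than a set factor. Where UMIs were many that interval was narrow, as for Tnfrsf11b in chondrocyte-like cells of library MGJ (4.93 to 5.34). A small shift then also counted as moved. Of the results that open a comparison, 62 moved and 43 did not, and of the others 111 moved, 248 did not and 5 turned direction.

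With doublets kept, at most 10% mitochondrial UMIs, resolution 0.5, resolution 2 and separate clustering, in that order where a value is given, the Tnfrsf11b ratio of chondrocyte-like cells in library MGJ was 1.98, 1.88, 1.94, 1.95 and 5.75 (7.48 and 225 in library MGJ2 for the last 2 settings), because the Col10a1-led cluster lost its name in the first 4. With that cluster kept it was 6.82, 7.18, 6.76 and 5.90 (MGJ) and 292, 324, 323 and 205 (MGJ2). The hypertrophic-like ratio of Tnfrsf11b in library MGJ was 1.43, 1.37, 1.42, 1.09 and 1.88, the first 4 without the cells of the Col10a1-led cluster. The Tnfsf11 per Tnfrsf11b number of chondrocyte-like cells in library MGJ was 0.137, 0.134, 0.140, 0.127 and 0.120 (0.01499 in library MGJ2 at resolution 2), and that of fibroblast-like cells 7.46, 2.93 and 3.06 for the first 3. The Csf1 ratio of mature neutrophil-like cells in library MGJ was 5.43, 1.71, 10.5, 8.07 and 7.42, and in library MGJ2 19.2 with doublets and 30.7 at resolution 0.5. Csf3r in mature over immature neutrophil-like cells was 3.52 and 2.79 in library MGJ for the first 2 settings and 5.44, 5.79, 3.88 and 5.99 in library MGJ2 with doublets, at 10%, at resolution 0.5 and with separate clustering. The Tnfsf11 ratio of fibroblast-like cells was 10.3 at 10% and 10.2 at resolution 0.5, and the Tnfrsf11a ratio of osteoclast-like cells in library MGJ 7.13 at 10%.

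With cells weighted equally, ratios were 14.3 (Tnfsf11, fibroblast-like, MGJ), 9.91 and 215 (Tnfrsf11b, chondrocyte-like), 2.95 and 27.2 (Csf1, mature neutrophil-like), 16.5 (Tnfrsf11a, osteoclast-like, MGJ2) and 2.82 and 3.10 (Tnfrsf11b, hypertrophic-like). Against named cells only, they were 8.71 (Tnfsf11), 7.62 and 231 (Tnfrsf11b) and 9.70 (Csf1, MGJ). In library MGJ, naming the low-count clusters gave 11.4 for Csf1, and leaving out the Ifit1-led cluster gave 1.76 for Csf1 and 3.41 for Csf3r in mature over immature neutrophil-like cells. The share of fibroblast-like cells with a Tnfsf11 UMI was 15.7% at 1000 UMIs and 62.2% without thinning.

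Direction turned for Csf3 in mature neutrophil-like cells of library MGJ (0.641 at 10%, 0.638 without the Ifit1-led cluster), Tnfsf11 in chondrocyte-like cells of library MGJ2 (0.938 at resolution 2), and, with cells weighted equally, Csf1 in mural-like cells (0.843) and Csf3r in immature neutrophil-like over myeloid progenitor-like cells (0.870) of library MGJ. The count of genes higher in osteoclast-like cells of library MGJ went from 2418 to as few as 1544, and that of genes lower in mature neutrophil-like cells from 7783 to between 3152 and 9796. Causes other than lost cluster names were not tested. Depth limits Il34 and the small classes of library MGJ2 most.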

Other observations

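Some classes had fewer than 50 cells. In library MGJ2, the 19 reticular stromal-like cells, with 203708 UMIs in all, held 2 Tnfrsf11b, 4 Il34 and no Csf3 UMI beside the Tnfsf11 and Csf1 UMIs given above. The single such cell of library MGJ held 11 Tnfsf11 UMIs among 44405 UMIs (247.7 CPM, interval 124 to 443). The 20 macrophage-like cells of library MGJ2 held 85 Csf1r UMIs (333 CPM), and its 9 mural-like cells held 12 Csf1 (94.9 CPM) and 10 Il34 UMIs (79.0 CPM). Among unnamed clusters, that led by Cd300e and Lilra5 in library MGJ2 (146 cells, best list that of monocytes) had 499.5 CPM of Csf1r (363 UMIs) and 77.1 CPM of Csf3r (56 UMIs).

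Csf2, which encodes GM-CSF, was higher in both fibroblast-like (65.9 CPM, ratio 2.03) and chondrocyte-like cells (56.6 CPM, 2978 UMIs, ratio 2.72) of library MGJ.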
